A study of Mus musculus with 12 samples.

Results

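B cells that did not secrete IL-10 (IL-10-) were compared between mice with house dust mite (HDM) allergy and control mice. The comparison held 6 of the 12 arrays of the series, chosen by their titles: IL-10- HDM 1 to 3 and IL-10- control 1 to 3. The other 6 arrays, 3 from HDM and 3 from control mice, held the IL-10 secreting fraction (IL-10+). They entered the model for its estimate of the spread and for the test of whether the HDM difference differed between the sorted populations.

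All mice were female Balb/c and all cells came from spleen. In the control group the B cells were purified from control mice, and in the HDM group from mice that the design text calls asthmatic and allergic; the labels give neither the HDM schedule nor an age. Both groups, and the IL-10+ cells too, were cultured with a CD40 agonist for 2 days and were given lipopolysaccharide (LPS) for the last 5 hours, so every value is of stimulated cells in culture and not of fresh spleen cells. IL-10- means the cells left unstained by an IL-10 secretion assay and taken by flow sorting. The mRNA was converted to cDNA and amplified by PCR before labelling with Cy3. Nothing in the labels ties the 3 samples of a group to separate mice or cultures. The p-values therefore reflect sample-to-sample spread, some of which could be technical.

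A B cell stimulated through CD40 receives the signal that a helper T cell gives, and LPS adds the Toll-like receptor signal of a bacterial product. B cells present antigen on MHC class II, and after stimulation they proliferate, switch from IgM to other isotypes and can become antibody-secreting plasmablasts. In allergy they are the source of IgE and also carry receptors for the cytokines of type 2 helper T cells. A minority secretes IL-10, a cytokine that restrains inflammation, and the cells described here are the majority that did not.

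A level is the scanner's processed signal on the log2 scale, less the 75th percentile of the same array, so 0 is that percentile itself and a difference of 1 is a doubling. The processed signal is an intensity and not a count, so the number of arrays limits the precision. A gene was represented by its brightest probe, and 24938 genes were tested. The scanner marked 58.9%, 54.1% and 62.4% of gene spots as well above background on IL-10- control 1, 2 and 3, and 57.6%, 56.5% and 47.7% on IL-10- HDM 1, 2 and 3. The groups overlapped in this share (exact two-sided permutation test, p = 0.40; 3 against 3 arrays cannot give a p under 0.10). IL-10- HDM 3 stood apart: its correlation with the other 5 arrays over all tested genes was 0.778 to 0.787, while the other 5 correlated with each other at 0.874 to 0.898, and it held the highest or lowest of the 6 values for 56.7% of genes against 26.7% to 31.5% for each other array. Values without it are therefore given beside the called genes and beside many of the genes and lists that it moves. IL-10- control 1 and 2 lay on the first slide, and IL-10- control 3 and all HDM arrays on the second, each slide scanned in its own session, so a value within slide 2 rests on a single control array.

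The B cell label was borne out by its markers. Of 11 B cell marker genes, 10 were well above background on all 6 arrays. The other, Cd79a, was not well above background on IL-10- HDM 3 by its tested probe. The levels of Pax5, the factor that maintains B cell identity, lay between 2.91 and 3.57 on all 6.

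HDM and control differed in few genes beyond the spread between arrays. Of 24938 genes, limma called 12 at an adjusted p under 0.05 (0.0481%): 1 higher (0.00401%) and 11 lower (0.0441%) in HDM. At an unadjusted p under 0.05, 2274 genes (9.12%) differed, of which 932 were higher (3.74%) and 1342 lower (5.38%). Without overlap between the groups, 1428 were higher (5.73%) and 1534 lower (6.15%). A difference below 0 was found for 52.1% of genes. Without IL-10- HDM 3, limma called 4 (0.016%), all lower and 3 of them among the 12, and at an unadjusted p under 0.05 2.77% were higher and 4.73% lower. With the slide as a block none was called, with 1704 at an unadjusted p under 0.05 (2.6% higher, 4.23% lower), while all 12 kept their sign and an unadjusted p under 0.05. The sign of these 12 could not change there, since all HDM arrays lay on the same side of control 3. When the spread was taken from the 6 IL-10- arrays alone, none was called either and 1321 had an unadjusted p under 0.05.

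The balance of higher and lower genes depended on the scaling. Of genes with an unadjusted p under 0.05, 41.0% were higher in HDM. This share was 53.6% after normexp background correction, 54.5% after quantile normalization, 61.7% among genes well above background on all 6 arrays and 83.3% with the values scaled to each array's median, as in the deposited value table. That last scaling moved the median difference of all genes from -0.04 to 0.60, so small differences are read against the median of all genes.

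The genes called lower were detected in control cells and at or near background in HDM cells. Of the 11, each was well above background on all 3 control arrays and on 0 or 1 of the 3 HDM arrays. Their differences ran from -3.40 to -5.72. All 12 are shown by array in the plot of called genes.

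**Figure D1:**
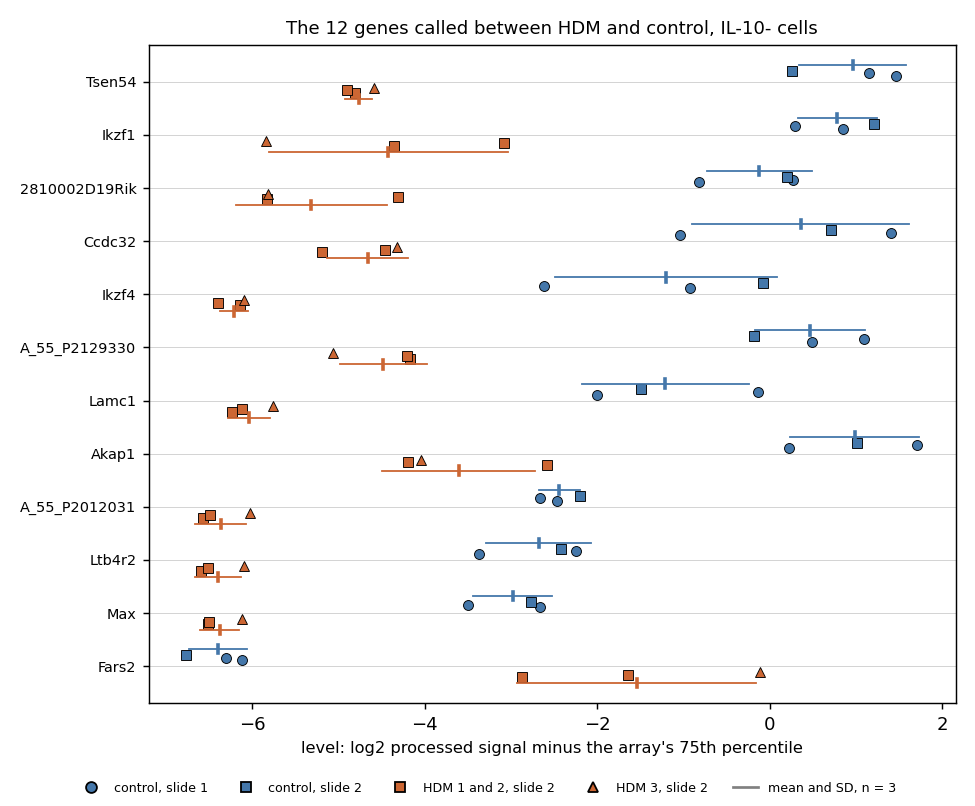
Level (log2, relative to the 75th percentile of its array, horizontal axis) of the 12 genes called between HDM and control in IL-10- cells, 1 symbol per array, with the mean and SD of 3 arrays as a line. In 11 genes the 3 HDM arrays lie below all controls, and in Fars2 they lie above; circles are slide 1, squares and triangles slide 2, and the triangle is IL-10- HDM 3.

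Tsen54, a subunit of the endonuclease that splices tRNA precursors, had the smallest adjusted p. Its levels were 1.46, 1.16 and 0.26 in controls and -4.80, -4.90 and -4.59 in HDM arrays, where none was well above background. The groups lay far apart and each was narrow. The signal was at least 45.6-fold lower, a bound that sets the control mean against the HDM arrays. For each of these it takes the array's lowest signal well above background, or the gene's own signal if higher. Some signals above that lowest one were not flagged, as here on IL-10- HDM 3, so this and later bounds are approximate. The fitted difference was -5.72 ± 0.40 (SE; limma adjusted p = 0.00117). It was called in all 12 fits that left out 1 array, -5.81 without IL-10- HDM 3, and it was -5.02 within slide 2 (adjusted p = 0.0632).

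A second Tsen54 probe did not show this. Its levels were -0.82, -1.95 and -0.93 in controls and -2.25, -0.59 and -0.05 in HDM arrays, well above background on all 6, with overlapping groups and a difference of 0.27. The probes lie 962 bases apart on the plus strand of chromosome 11 (build mm9), the called one at chr11:115683370-115683429 and the other at chr11:115684332-115684391. Their first 30 of 60 bases, which show that they read different parts of the transcript, are the following.
Tsen54 called probe: tgtggcgacgttccgaaaaaacagccctgg
Tsen54 other probe: actgtgcctttattcaagggggtgcttgct

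Members of the Ikaros family, zinc finger transcription factors of lymphocytes, were called together. Ikzf1 (Ikaros) had levels of 0.85, 0.29 and 1.21 in controls and -4.36, -3.08 and -5.85 in HDM arrays. Ikzf4 (Eos) had levels of -0.92, -2.61 and -0.08 in controls and -6.14, -6.40 and -6.10 in HDM arrays. In both genes every HDM array lay below every control. The difference was -5.21 ± 0.60 for Ikzf1 and -5.01 ± 0.58 for Ikzf4 (limma, both adjusted p = 0.0185). Without IL-10- HDM 3 the differences were -4.50 (adjusted p = 0.0296) and -5.07 (adjusted p = 0.0621). For Ikzf4, not well above background on any HDM array, the difference was at least 10.4-fold.

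The called Ikzf1 and Ikzf4 probes are nearly the same sequence. Shifted by 1 base, they shared 53 of 59 bases, and no other probe on the array shared as many as 42 with either. They come from chr11:11669493-11669552 (Ikzf1, plus strand) and chr10:128071131-128071190 (Ikzf4, minus strand) of mm9. Over the aligned stretch of 30 bases below they differed at 1 position, in capitals, which is G14C counted from the first base shown.
Ikzf1 called probe: ttgagtgtaacatGtgtggttatcacagcc
Ikzf4 called probe: ttgagtgtaacatCtgtggttatcacagcc

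Whether either probe also reads RNA of the other gene was not tested, so these calls are not independent readings. The other probes moved less. The Ikzf1 probes 8149 and 3335 bases away differed by -0.79 and -0.87 with overlapping groups, and the kept Ikzf4 probe 1527 bases away differed by -1.57, from -3.18, -2.71 and -1.68 in controls to -3.81, -4.79 and -3.69 in HDM arrays, without overlap. Ikzf3 (Aiolos), whose probe is unlike these, had levels of -0.73, 1.14 and 0.78 in controls and -1.91, 0.01 and 0.79 in HDM arrays, which overlap.

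Ccdc32, a coiled-coil protein, was lower by both of its probes. The called probe had levels of -1.04, 1.41 and 0.71 in controls and -5.20, -4.46 and -4.33 in HDM arrays, at least 28.2-fold lower (limma difference -5.02 ± 0.58, adjusted p = 0.0185; -5.18 without IL-10- HDM 3, adjusted p = 0.0604). The other, 3595 bases away, differed by -2.84, with IL-10- HDM 2 at -2.24 inside the control range of -1.49 to -2.66 and the other HDM arrays at -6.48 and -6.00.

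Akap1, which anchors protein kinase A at the mitochondrial surface, had levels of 0.22, 1.71 and 1.01 in controls and -2.59, -4.20 and -4.04 in HDM arrays (difference -4.59 ± 0.53, limma adjusted p = 0.0185). Only IL-10- HDM 1 was well above background in the HDM group. Max, the partner through which Myc binds DNA, was dim in controls (-2.67, -3.50 and -2.77) and at background in HDM arrays (-6.51, -6.51 and -6.11). Its difference of -3.40 ± 0.40 had an adjusted p of 0.0185 in limma and amounted to at least 3.04-fold. Without IL-10- HDM 3, Akap1 differed by -4.38 (adjusted p = 0.0625) and Max by -3.53 (adjusted p = 0.0604).

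Ltb4r2 encodes the low-affinity receptor for the lipid mediator leukotriene B4. Its levels were -3.37, -2.24 and -2.42 in controls and -6.59, -6.51 and -6.09 in HDM arrays, at least 3.74-fold lower (limma difference -3.72 ± 0.48, adjusted p = 0.0339). Lamc1, a laminin chain of basement membranes, was at -2.0, -0.13 and -1.5 in controls and -6.23, -6.12 and -5.77 in HDM arrays, at least 10.3-fold lower (limma difference -4.83 ± 0.64, adjusted p = 0.0407). Both genes had 1 kept probe, so neither has a second reading. Without IL-10- HDM 3, Ltb4r2 differed by -3.87 (adjusted p = 0.0633) and Lamc1 by -4.96 (adjusted p = 0.114).

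Another 3 lower calls fell outside the rule for named genes, because they carry a clone or probe name, and are given here after their values were seen. The clone 2810002D19Rik (-5.19 ± 0.55, limma adjusted p = 0.0185) and the probes A_55_P2129330 (-4.95 ± 0.45, adjusted p = 0.00819) and A_55_P2012031 (-3.92 ± 0.50, adjusted p = 0.033) were well above background on all 3 controls. Without IL-10- HDM 3 they differed by -4.95, -4.66 and -4.09, and A_55_P2129330 alone of the 3 was called (adjusted p = 0.0296). A_55_P2129330 was, with Tsen54, the only gene called in all 12 fits that left out 1 array.

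Fars2, the mitochondrial phenylalanyl-tRNA synthetase, was the single gene called higher. Its levels were -6.11, -6.30 and -6.77 in controls, none well above background, and -2.87, -1.64 and -0.11 in HDM arrays. The groups did not overlap, but the HDM arrays spread widely and IL-10- HDM 3 was the highest. The difference was 4.86 ± 0.64 (limma adjusted p = 0.0407), at least 5.88-fold, and without IL-10- HDM 3 it was 4.14 with an adjusted p of 0.0604.

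Across the 12 calls, adjusted p-values over the 12 fits that left out 1 array stayed under 0.05 in all of them for 2 genes. Lamc1 kept its call in 3, Fars2 in 4, Ltb4r2 in 5, A_55_P2012031 in 7, Max in 8, and Ikzf1, Ikzf4, Ccdc32, Akap1 and 2810002D19Rik in 9. Leaving out IL-10- HDM 1 raised the number of called genes to 128 (18 higher, 110 lower) and leaving out IL-10- HDM 2 to 53 (6 higher, 47 lower).

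**Figure D2:**
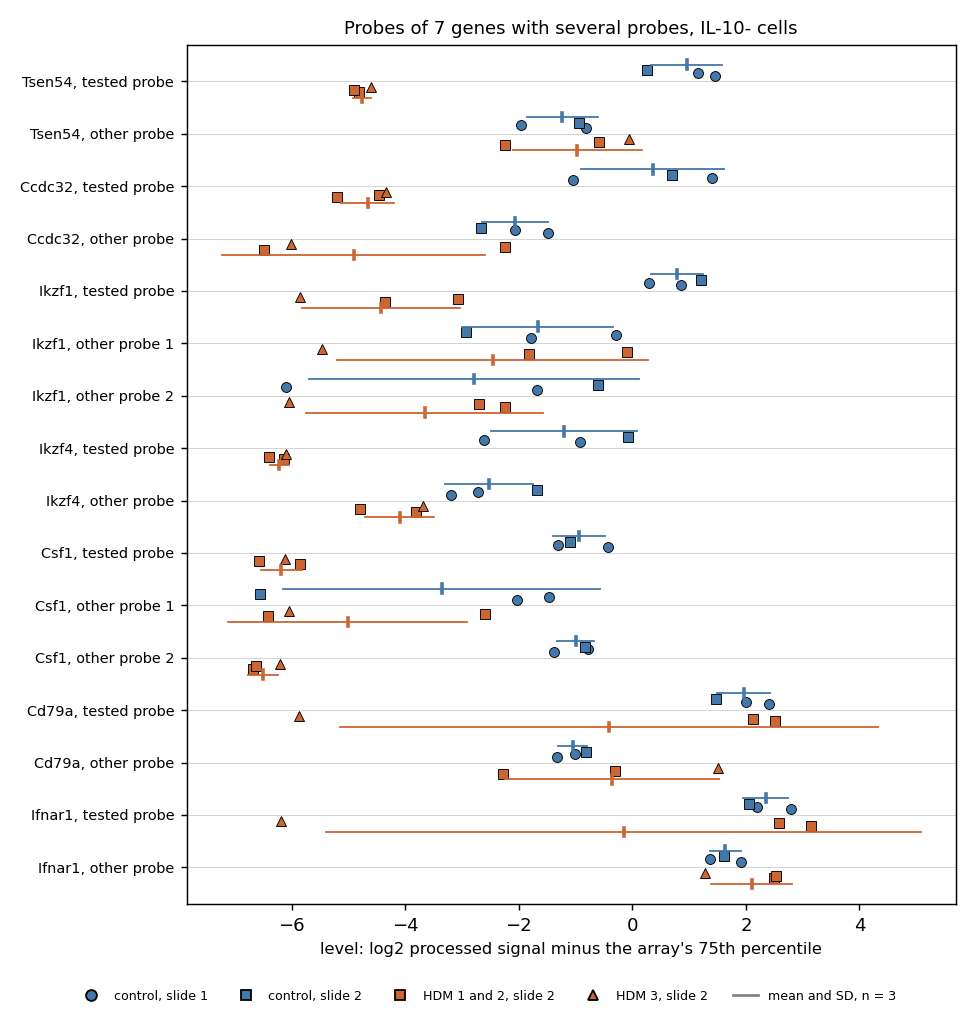
Levels by array of every kept probe of 7 genes that have several, drawn as in the plot of called genes. The tested Tsen54, Ikzf1 and Ikzf4 probes separate the groups by 5.01 or more, their other probes by 1.57 or less. For Cd79a and Ifnar1 only the tested probe is at background on IL-10- HDM 3. The other probe annotated as Cd79a is placed on another chromosome than the tested one.

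Several genes just outside the threshold had clean separation, and were chosen here after their values were seen. Kynu, the kynureninase of tryptophan breakdown, was well above background on all 6 arrays, at 1.02, 1.18 and 1.77 in controls and -0.75, -0.78 and -1.10 in HDM arrays, 4.60-fold lower (limma adjusted p = 0.0687). The HDM arrays lay close together (SD 0.19, n = 3), the difference was -2.09 without IL-10- HDM 3 and -2.65 within slide 2. A second probe, well above background on 1 array of each group, differed by -1.69 with overlap.

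Mt2, a metallothionein that binds zinc and other metals, had the largest positive difference among these. Its levels were -2.91, -1.29 and -4.79 in controls and 2.34, 2.74 and 1.60 in HDM arrays, without overlap. The difference was 5.22 ± 0.80 (limma adjusted p = 0.0697), 5.54 without IL-10- HDM 3 and 7.02 within slide 2. Its neighbour Mt1, of the same family, did not separate the groups with its brighter probe (-5.19, -4.37 and -1.10 against -4.23, 0.05 and -3.41). Clcc1, an intracellular chloride channel, was 3.85-fold higher, from -0.75, -0.85 and -1.66 to 0.91, 0.91 and 0.76 (limma adjusted p = 0.101), but its second probe differed by -0.08.

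Where the signal passed from present in 1 group to absent in the other, the loss was mostly in HDM cells. Well above background on all 3 controls and on no HDM array were 156 genes (0.626%), against 49 (0.196%) with the reverse pattern; 91 and 26 of these carried a gene symbol. IL-10- HDM 3 had the lowest share of detected spots, and without it the same counts, over IL-10- HDM 1 and 2, were 231 and 143. Taking control 3 alone, on the slide of the HDM arrays, 752 genes were detected there and on no HDM array, and 205 on all HDM arrays and not there. Control 3 had the highest share of tested genes well above background, 90.9% against 73.0% to 86.4% on HDM arrays. The part of these shares in the counts was not tested. Of the 156, 24 had a second kept probe, which differed in the same direction in 22 (91.7%) and without overlap in 14 (58.3%). Over all 7364 genes with several probes these shares were 62.1% and 9.15%. Over the 665 of them with an unadjusted p under 0.05 they were 71.9% and 25.0%. Probes of a gene can overlap in position, as for Csf1 below, so a second probe is not always an independent reading. Of the 49, 5 had a second kept probe, and it differed in the same direction in 2.

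The largest of these losses by gene symbol, after Tsen54, was Csf1, the macrophage growth factor. Its levels were -0.43, -1.30 and -1.09 in controls and -5.86, -6.57 and -6.12 in HDM arrays, at least 12.5-fold lower, though limma did not call it (difference -5.24 ± 1.10, adjusted p = 0.189). A probe that starts 29 bases away gave -5.51, and another probe, 4217 bases away, gave -1.66 with overlapping groups.

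Fmnl2, a formin that builds actin filaments, went from -1.26, 0.90 and 0.72 to -5.25, -5.19 and -4.73, at least 26.1-fold lower, and its second probe differed by -2.67. Map3k1, a kinase upstream of JNK, went from -0.75, 0.51 and -2.05 to -6.66, -4.89 and -6.12, at least 14.1-fold lower (limma adjusted p = 0.0697), and its second probe differed by -5.58. The pseudogene Znf41-ps was at least 11.9-fold lower. In the other direction, besides Fars2, stood Smim26 (at least 3.86-fold higher), the oocyte gene Zar1 (4.63-fold), Nars2, the mitochondrial asparaginyl-tRNA synthetase (5.82-fold), and the olfactory receptor Olfr1120 (4.01-fold), each as a lower bound.

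Among genes detected throughout, differences were smaller and leaned the other way. Of 15002 genes well above background on all 6 arrays, 751 were higher (5.01%) and 479 lower (3.19%) at an unadjusted p under 0.05, and none was called. Of those at this p, 592 had a symbol and no overlap between groups (2.37% of all 24938 genes tested). Of these 415 were higher (1.66% of all tested) and 177 lower (0.71%). Ranked by their value within slide 2, the higher ones were led by Rnf8, Ifit1, Phf11b, Ubac1, Acsl4, Erlin2, Gt(ROSA)26Sor, Panx1, Rnf169 and Isoc2a, with differences of 2.11 (Panx1) to 3.30 (Phf11b) over all arrays. In all 10 of them IL-10- HDM 3 was the highest of the 6 arrays. Without it the differences ran from 1.51 (Erlin2) to 2.61 (Ifit1), and those of Rnf8, Erlin2, Gt(ROSA)26Sor and Rnf169 dropped by over 1.5 times, to 1.84, 1.51, 1.67 and 1.83.

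Isoc2a had the smallest p of the 10, at -1.40, -0.63 and -1.80 in controls and 1.75, 0.34 and 2.43 in HDM arrays (6.89-fold, limma adjusted p = 0.137). Ubac1, an adaptor of a ubiquitin ligase, was at -0.24, -0.90 and -1.97 in controls and 0.90, 1.32 and 3.47 in HDM arrays (7.64-fold), and its second probe differed by 2.96. Acsl4, which activates polyunsaturated fatty acids, went from -0.18, -0.88 and -2.84 to 1.10, 0.36 and 1.5.

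The lower ones were led by Cntln, Pde4d, Lrrc71, Dtnbp1, Rxylt1, Il1rn, Epsti1, Trim2, Togaram1 and Adgre5. Epsti1, an interferon-inducible gene, was at -1.11, 0.34 and -0.14 in controls and -3.89, -3.37 and -3.61 in HDM arrays (9.98-fold lower, limma adjusted p = 0.118). Adgre5, the adhesion receptor CD97, was at -1.45, -0.20 and -0.46 in controls and -3.96, -3.54 and -3.64 in HDM arrays (8.05-fold lower, adjusted p = 0.145). Both kept their difference without IL-10- HDM 3, at -3.33 and -3.05.

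Il1rn, the antagonist that blocks the IL-1 receptor, went from -2.16, -0.87 and -0.02 to -3.67, -3.50 and -3.60, 5.95-fold lower. Dtnbp1, Togaram1 and Cntln each had another probe with a difference above 0, of 0.45, 1.58 and 0.30, so their direction depended on the probe. Pde4d, a cyclic AMP phosphodiesterase, was low on IL-10- HDM 2 and 3 (-4.05 and -3.78) but at 0.28 on IL-10- HDM 1, beside the lowest control at 0.29.

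No B cell gene was called, and the lists of B cell genes differed in how they leaned. Of the 11 marker genes, 9 were above 0, with a median of 0.54 against -0.04 over all genes tested, and 2 were higher at an unadjusted p under 0.05. These markers are bright, with a median level of 3.41, and their median difference was 0.18 after quantile normalization. Of 21 B cell identity genes, 13 were above 0 (61.9%, against 56.8% of genes detected on all 6 arrays), with a median of 0.30 that became -0.07 after quantile normalization. Cd79b, a signalling chain of the B cell receptor, was at 0.60, 2.12 and 1.25 in controls and 2.56, 2.67 and 3.74 in HDM arrays (3.16-fold, limma adjusted p = 0.508), a difference of 1.66 and of 1.29 without IL-10- HDM 3. Its partner Cd79a was alike in both groups (2.40, 2.00 and 1.47 against 2.52 and 2.12) except on IL-10- HDM 3. There it was at -5.87 and not well above background. A second probe annotated as Cd79a was at 1.5 on that array, its highest of the 6. That probe is placed on chromosome 12 and the tested probe on chromosome 7 (mm9), and whether it reads Cd79a was not tested. Ms4a1, which encodes CD20, overlapped between groups (difference 0.47 ± 0.49).

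Other B cell receptor and identity genes with an unadjusted p under 0.05 were Spib (1.54), Blnk (0.86), Prkcb (0.88) and Fcrla (2.94), all higher, and Bank1 (-1.66), which was lower. Fcrla was well above background on IL-10- HDM 1 and 2 alone, and differed by 4.51 without IL-10- HDM 3. The repressor Bach2, of another list, was lower too (-5.00). Bank1 was at -1.08, -0.91 and -1.31 in controls and -2.73, -2.76 and -2.80 in HDM arrays, with no overlap, and its second probe differed by -2.66. Bach2 was at 2.54, 3.75 and 3.86 in controls and -0.82, 1.27 and -5.29 in HDM arrays, and it differed by -3.16 without IL-10- HDM 3 and by -1.54 with its second probe. Prkcb was not of one direction, since the mean of its probes differed by -0.20.

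No gene of antigen presentation on MHC class II was called, and its members differed in direction. H2-Ab1, the beta chain of I-A, was at 2.65, 2.52 and 2.12 in controls and 3.60, 3.73 and 5.43 in HDM arrays (3.54-fold, unadjusted p = 0.00431, limma adjusted p = 0.339), and an overlapping probe differed by 1.74. H2-Eb1, the beta chain of I-E, was at -0.70, 0.56 and 0.30 in controls and 1.75, 1.17 and 1.09 in HDM arrays (2.43-fold). Neither overlapped between groups, and both differences held without IL-10- HDM 3, at 1.24 and 1.40.

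Cd74, the invariant chain that escorts class II molecules, differed by 1.30 (1.03 without IL-10- HDM 3) with overlap (controls 5.39, 6.76 and 5.14, HDM 6.99, 6.60 and 7.61). H2-Aa, the alpha chain of I-A, differed by 0.85 with overlap, from 2.46, 3.90 and 2.80 to 4.04, 3.67 and 4.0. Of the 17 tested members, 3 were higher and none lower at an unadjusted p under 0.05, and 10 were above 0, with a median of 0.44 (0.47 without IL-10- HDM 3, 0.47 within slide 2). H2-DMa, which loads peptides onto class II molecules, went the other way, from 0.00, 2.13 and 0.21 to -0.58, -0.48 and -3.96 (-1.31 without IL-10- HDM 3), and Ciita, the activator of these genes, differed by 0.44.

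Class II genes share short promoter boxes, among them the Y box, an inverted CCAAT sequence bound by NF-Y. The motif CTGATTGG was searched on both strands in the 250 bases before the start site (RefSeq, GRCm38.p6). It was found in 4.07% of 27025 promoters and in 4 of the 14 class II list genes with an entry: H2-Aa, H2-Eb1, H2-Eb2 and H2-Oa, which differed by 0.85, 1.28, 0.95 and 1.36. The 10 without it differed by -2.45 (H2-DMa) to 0.95 (Rfxank). Only the exact motif was searched, and H2-DMb1, H2-DMb2 and H2-Ob hold all of it but its first base. A gene without the motif may therefore still hold a Y box. Whether the motif goes with the difference was not tested. H2-Aa and H2-Eb1 are shown with the match in capitals, 51 and 62 bases before the start site; the reference is of another mouse strain than these Balb/c cells, and a match is not a site shown to be used.
H2-Aa promoter, chr17:34287824-34288073, minus strand: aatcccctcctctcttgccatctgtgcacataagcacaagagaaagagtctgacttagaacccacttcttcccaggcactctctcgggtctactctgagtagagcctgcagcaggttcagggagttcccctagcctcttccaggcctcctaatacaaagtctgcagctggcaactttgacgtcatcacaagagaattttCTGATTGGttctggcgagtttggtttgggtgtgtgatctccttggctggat
H2-Eb1 promoter, chr17:34305617-34305866, plus strand: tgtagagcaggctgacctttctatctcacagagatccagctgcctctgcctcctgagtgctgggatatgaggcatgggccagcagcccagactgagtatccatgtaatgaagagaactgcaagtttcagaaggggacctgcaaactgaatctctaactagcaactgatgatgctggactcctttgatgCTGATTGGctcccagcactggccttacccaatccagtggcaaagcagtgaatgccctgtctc

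Isotype genes differed in opposite directions without passing the test. Ighm, the constant region of IgM, was at 5.15, 4.59 and 4.73 in controls and 5.49, 5.65 and 5.19 in HDM arrays, 1.54-fold higher (limma adjusted p = 0.584). Ighg1, that of IgG1, was at -1.36, 0.31 and -0.44 in controls and -1.87, -1.72 and -3.56 in HDM arrays, 3.70-fold lower (adjusted p = 0.554), while its second probe differed by 1.62. Neither gene overlapped between groups, but the Ighg1 direction depended on the probe. Ighe, that of IgE, was well above background on 1 control and no HDM array.

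Of the 21 tested plasmablast and plasma cell genes, 6 were above 0, with a median of -0.55 (-0.16 without IL-10- HDM 3, -1.03 within slide 2). At an unadjusted p under 0.05, 3 were higher and 4 lower. Irf4, which drives both switching and plasma cell fate, was higher (6.18, 6.75 and 6.32 in controls, 6.99, 7.12 and 8.24 in HDM arrays), by 1.03, and by 0.63 without IL-10- HDM 3. Prdm1, the regulator of plasma cell differentiation, overlapped (difference -0.14), as did Xbp1 (1.03) and Jchain (-0.83). Without IL-10- HDM 3 Prdm1 differed by 0.10 and Xbp1 by -0.14, so neither had a settled direction. Ccr10, a homing receptor of plasma cells, was at -0.34, -0.92 and 0.17 in controls and -2.06, -6.40 and -6.05 in HDM arrays (limma adjusted p = 0.29), and Derl3, of the secretory pathway, was at least 4.73-fold lower. Creld2, of the same pathway, went from -5.82, -2.43 and -5.83 to -0.81, -2.35 and 1.73.

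**Figure D3:**
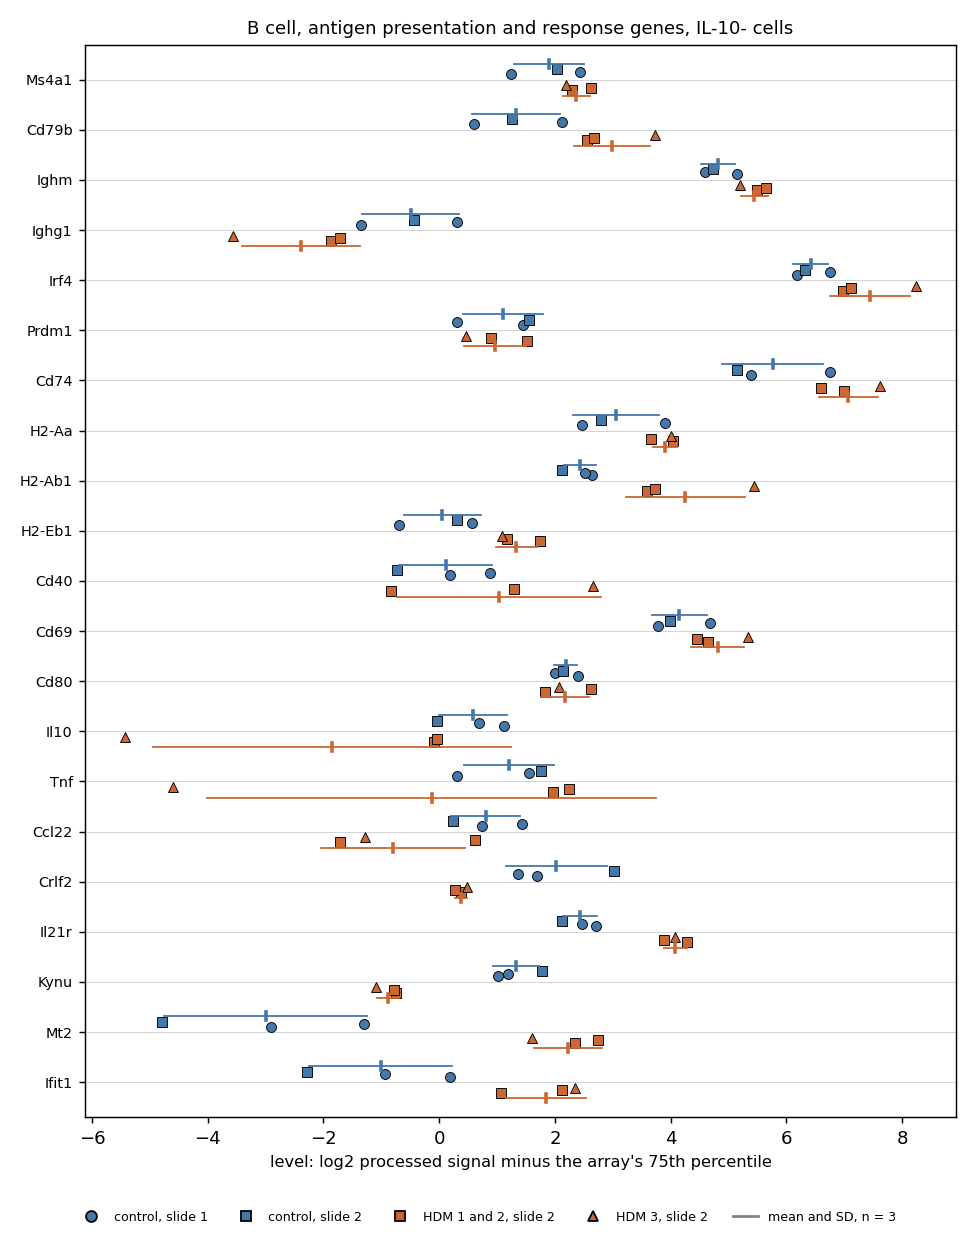
Levels by array of 21 genes of B cell identity, isotype, antigen presentation, activation and cytokine response in IL-10- cells, drawn as in the plot of called genes. Kynu and Il21r separate the groups with narrow spread, in Crlf2 the HDM arrays alone lie close together, and the wide HDM bars of Il10 and Tnf come from IL-10- HDM 3.

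Il10 signal was detected on 5 of the 6 arrays of the IL-10- sort. Its levels were 1.12, 0.69 and -0.04 in controls and -0.09, -0.05 and -5.43 in HDM arrays, where IL-10- HDM 3 was not well above background. The difference was -2.45 ± 1.18 (limma adjusted p = 0.565) and -0.66 without that array. In IL-10+ cells the mean level was 7.15 in controls and 6.76 in HDM arrays, and how much of the IL-10- signal came from carried-over IL-10+ cells was not tested. Cd9, a tetraspanin that the series title names as a regulatory B cell marker, overlapped and was dim, well above background on 2 arrays of each group (difference -0.01 ± 0.80).

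Of 17 tested cytokines, 6 were above 0, with a median of -0.39 that became 0.15 without IL-10- HDM 3. Tnf was at 0.31, 1.55 and 1.76 in controls and 1.97, 2.25 and -4.61 in HDM arrays. Its difference was -1.34, and 0.90 without IL-10- HDM 3. Il6 was well above background on 1 of the 6 arrays and was not tested. Ebi3, a subunit of IL-27 and IL-35, was higher at an unadjusted p of 0.042 (4.86, 4.61 and 4.36 against 5.32, 5.09 and 5.68).

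Of 15 chemokines, 1 was higher and 2 lower at that threshold. Ccl22, a ligand of CCR4, went from 0.73, 1.44 and 0.24 to -1.72, 0.62 and -1.28 (difference -1.59 ± 0.58; -1.35 without IL-10- HDM 3), and Ccl1 from -0.67, -0.55 and -1.43 to -3.06, -1.95 and -3.06. Ccl3 went from 5.06, 5.30 and 4.85 to 5.87, 5.61 and 6.16. The Ccl1 and Ccl3 groups did not overlap, and neither gene was called.

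Some cytokine receptors separated the groups without overlap, and none was called. Il21r, the receptor for the helper T cell cytokine IL-21, was at 2.71, 2.46 and 2.12 in controls and 4.28, 3.89 and 4.08 in HDM arrays, 3.14-fold higher (limma adjusted p = 0.145; 1.65 without IL-10- HDM 3, 1.96 within slide 2). Ifngr2, a chain of the interferon-gamma receptor, was 3.42-fold higher, from -0.44, 0.31 and -0.35 to 1.30, 1.56 and 1.98.

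Crlf2, the receptor for thymic stromal lymphopoietin, an epithelial cytokine of allergic airways, was at 1.69, 1.37 and 3.02 in controls and 0.38, 0.27 and 0.48 in HDM arrays, 3.14-fold lower (limma adjusted p = 0.338). Il27ra, a receptor chain for IL-27, was at least 14.2-fold lower. Il4ra, the receptor for IL-4 and IL-13, overlapped (difference -0.01 ± 0.60), and its second probe differed by -1.92. Fcer2a, the low-affinity IgE receptor CD23, overlapped too (-0.49 ± 0.81), and without IL-10- HDM 3, its lowest array, it differed by 0.65. Over the 31 tested receptors, 2 were higher and 4 lower at an unadjusted p under 0.05, with a median of -0.13.

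Genes tied to type 2 allergy were not higher as a list. Of 17 tested, 6 were above 0, with a median of -0.40 (-0.59 without IL-10- HDM 3, 0.13 after quantile normalization); none was higher and 3 were lower at an unadjusted p under 0.05, namely Crlf2, Ccl22 and Arg1. Of 25 genes of the IL-4 and STAT6 response, 1 was higher and 3 lower. Of 14 genes for histamine, leukotrienes and prostaglandins, Ltb4r2 was called and Hrh2, the histamine H2 receptor, was at least 4.13-fold lower (limma adjusted p = 0.101).

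No costimulatory or activation gene was called. Cd80 differed by -0.01 ± 0.32 with its tested probe and by -3.53 with another. Cd69 differed by 0.66 ± 0.42 and Cd40 by 0.93 ± 0.79 (0.40 and 0.11 without IL-10- HDM 3), both with overlap, and Cd86 was well above background on 3 of the 6 arrays. Of 24 costimulation and checkpoint genes, none had an unadjusted p under 0.05. Of 28 immediate early genes, 2 were higher and 1 lower, and Bcl6, the germinal centre repressor, differed by 0.18 ± 0.88.

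For the LPS signal, Tlr4 was well above background on 1 array of each group. Of 25 Toll-like receptor and adaptor genes, 1 was higher and 1 lower at an unadjusted p under 0.05. Tlr1 was higher (2.40, 3.14 and 2.70 against 3.56, 4.30 and 5.24), by 1.62, and by 1.19 without IL-10- HDM 3. The kinase Irak4 was lower by its tested probe, from 1.00, 2.20 and 0.77 to 1.33, -4.85 and -6.22, and its other probe differed by 1.77, so its direction was not settled.

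Interferon-induced genes split. Ifit1, an antiviral effector, was at 0.18, -0.93 and -2.29 in controls and 1.06, 2.13 and 2.35 in HDM arrays (7.25-fold higher, limma adjusted p = 0.178; 2.61 without IL-10- HDM 3). Oas1a, which makes the activator of RNase L, went from -1.97, 0.71 and 0.50 to -3.77, -4.13 and -4.47, although its second probe differed by -0.07. Stat2, a transcription factor of the pathway, was at least 4.04-fold lower. Over the 26 tested genes, 2 were higher and 3 lower at an unadjusted p under 0.05, and the median was 0.05, -0.49 without IL-10- HDM 3 and 0.46 within slide 2.

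Several lists of housekeeping functions had a large share of members above 0. Of 43 cytosolic ribosomal protein genes, 41 were above 0, with a median of 0.65 (0.36 without IL-10- HDM 3, 0.81 within slide 2). Counts above 0 were 20 of 24 for glycolysis (median 0.65), 21 of 25 for cholesterol biosynthesis (0.59), 18 of 20 for heat shock chaperones (0.57), 18 of 29 for the unfolded protein response (0.58) and 20 of 30 for oxidative phosphorylation (0.43). Over all genes tested 47.9% were above 0, and over genes well above background on all 6 arrays 56.8%. The unfolded protein response (62.1%) and oxidative phosphorylation (66.7%) lay nearer to that second share than the other lists did. No member of these lists was called, and at an unadjusted p under 0.05 the ribosomal list had 4 higher and none lower.

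Without overlap between groups, 10 ribosomal genes were higher (23.3%), 4 of glycolysis (16.7%), 4 of cholesterol biosynthesis (16%) and 4 of heat shock (20%). So were 3 of oxidative phosphorylation (10%) and 2 of the unfolded protein response (6.90%). Lower without overlap were 5 members, 2 of them in the unfolded protein response, 2 in heat shock and 1 in glycolysis. Over genes well above background on all 6 arrays, 8.27% were higher and 4.76% lower without overlap. Rpl10a was at 3.72, 4.49 and 3.72 in controls and 4.75, 4.69 and 6.43 in HDM arrays, and Eno1, a glycolytic enzyme, at 3.03, 3.69 and 3.31 against 3.97, 3.82 and 5.18. The chaperonin Hspd1 was at 3.09, 3.48 and 2.81 against 3.76, 3.94 and 5.23. In all 3 genes IL-10- HDM 3 was the highest array, and without it the differences were 0.74, 0.55 and 0.72. Hsf1, the transcription factor of the chaperone genes, went the other way and was at least 6.86-fold lower (limma adjusted p = 0.137).

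**Figure D4:**
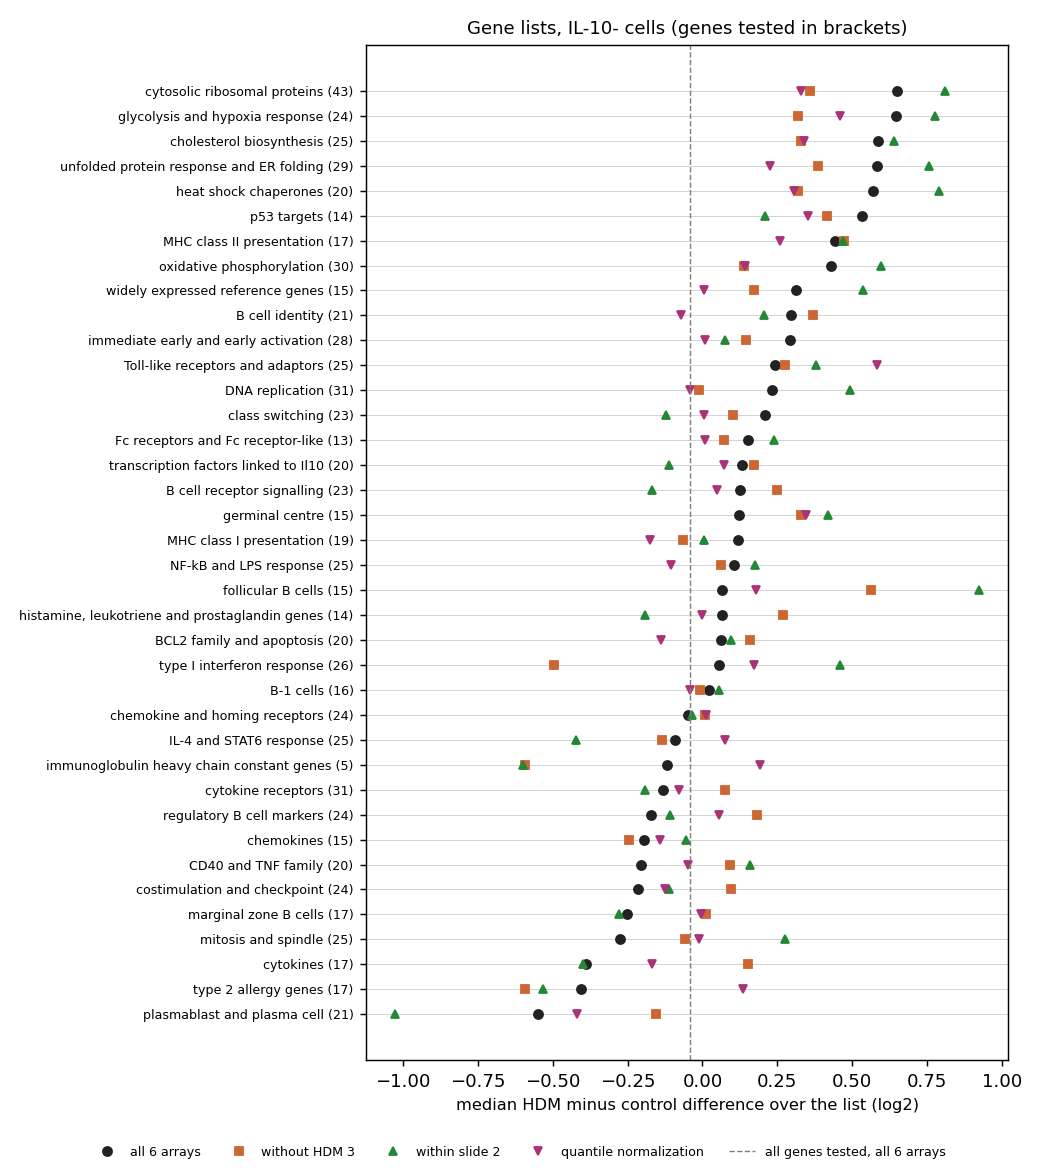
Median HDM minus control difference (log2, horizontal axis) over the tested genes of 38 gene lists, with all 6 arrays (circles), without IL-10- HDM 3 (squares), within slide 2 (upward triangles) and after quantile normalization (downward triangles); the dashed line is the median over all genes. Ribosomal protein genes have the highest median with all 6 arrays, 0.65, and plasmablast and plasma cell genes the lowest, -0.55.

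These lists hold bright genes, and the difference followed brightness over the whole array. With the genes in 10 equal bins by mean level, the median difference was -0.21 in the dimmest bin, -0.29 in the fifth and 0.28 in the brightest. The pattern stood without IL-10- HDM 3 (-0.27 to 0.18) and within slide 2 (-0.48 at the lowest to 0.35). After quantile normalization it turned, with 0.26 in the dimmest bin and -0.04 in the brightest, and the ribosomal median became 0.33, the cholesterol one 0.34 and the heat shock one 0.30. The part of this dependence in the list medians was not tested.

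**Figure D5:**
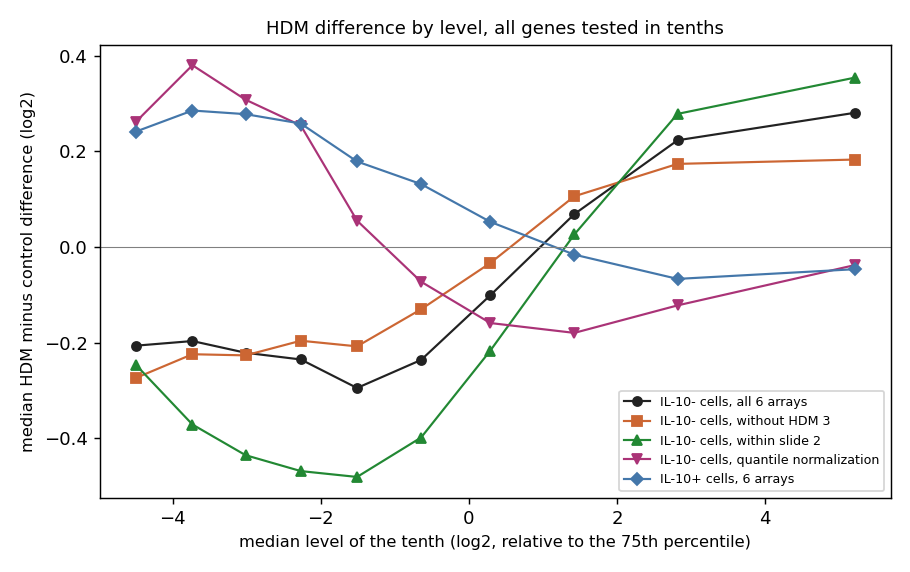
Median HDM minus control difference (log2, vertical axis) in 10 equal bins of the 24938 genes by mean level (horizontal axis). In IL-10- cells the curve runs from -0.21 to 0.28 and in IL-10+ cells from 0.24 to -0.05, and quantile normalization turns the IL-10- curve over.

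No proliferation gene was called. The DNA replication list had a median of 0.23, of -0.01 without IL-10- HDM 3 and of 0.49 within slide 2, where 22 of 31 were above 0. Of the 31 DNA replication genes, none was higher and 2 lower at an unadjusted p under 0.05 (Rrm1 and Orc1, both at background on IL-10- HDM 3), and of 25 mitosis genes 2 were lower (Mki67 and Kif20a). Mki67 was also at background on IL-10- HDM 3 (-5.49), and its difference went from -3.40 to -1.81 without that array. Kif20a, a kinesin of cell division, was at 0.66, 0.50 and 0.74 in controls and -0.24, -0.39 and 0.14 in HDM arrays, a difference of -0.95 without IL-10- HDM 3.

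Single markers of other cell lists were bright in both groups, among them Itgam, Csf1r (2.65 to 4.04), Siglech of the dendritic cell list (5.82 to 6.54) and Tfrc of the erythroid list (4.06 to 5.45), while many others were at background. In bulk samples, fewer cells of a type and less RNA per cell cannot be told apart. Of 16 monocyte and macrophage markers, 12, 8 and 10 were well above background on the controls and 6, 7 and 6 on the HDM arrays (exact permutation test, p = 0.10, the smallest possible). This p was not corrected for the other marker measures tested. The summed linear level of the B cell markers had the same p in that test, with means of 170 in controls and 284 in HDM arrays. Over the 11 tested monocyte and macrophage markers, 2 were above 0, with a median of -0.81. The median was -0.24 after normexp correction and -0.21 over the 4 detected on all 6 arrays. Adgre1, an adhesion receptor that marks macrophages, was at 0.12, -2.28 and -2.02 in controls and not well above background on any HDM array (-4.71, -4.46 and -6.10), at least 9.07-fold lower (limma adjusted p = 0.137). The markers Ccr2, Lyz1, Mrc1 and C1qc were well above background on none of the 6 arrays. The summed level of the list, of which Itgam at 8.51 to 8.94 makes up most, was 381 to 425 in controls and 374 to 503 in HDM arrays on a linear scale relative to the 75th percentile. The part of such cells in the loss of Csf1, Adgre1 or Il1rn was not tested.

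T cell markers were detected in similar numbers (11 on each control, 11, 10 and 10 on HDM arrays), with Cd3e well above background on all 6 and Cd3d and Bcl11b on none. Of 8 tested platelet markers 2 were above 0 and 2 were lower at an unadjusted p under 0.05 (Gp1ba and Itga2b), with Pf4 and Ppbp at background throughout. Neutrophil markers S100a8 and S100a9, and the mast cell marker Cpa3, were also at background on all 6 arrays.

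None of the 12 genes called in IL-10- cells was called in IL-10+ cells (limma, 1 gene called in all, 0.00401%, and 568, or 2.28%, at an unadjusted p under 0.05 there). In the test of the difference between the populations, 3 genes passed (0.012%; 1609, or 6.45%, at an unadjusted p under 0.05). Tsen54 was 1 of them: it differed by 0.13 ± 0.40 in IL-10+ cells, and the HDM effect in IL-10- minus that in IL-10+ cells was -5.86 ± 0.56 (limma adjusted p = 0.0253). The test of the populations took IL-10+ and IL-10- arrays as independent, and whether same-numbered ones are paired was not tested. With the replicate number as a block, no gene passed it.

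Gspt2, a translation termination factor, was the second. It went from -1.97, -1.48 and -1.30 in IL-10- controls to -5.18, -6.38 and -4.80 in IL-10- HDM cells, and from -4.72, -4.31 and -5.90 in IL-10+ controls to -2.07, -2.86 and -1.80 in IL-10+ HDM cells. The groups were thus ordered in opposite ways in the sorted populations, and the difference of the effects was -6.60 ± 0.77 (limma adjusted p = 0.0467). Over all 24938 genes the HDM differences of the populations, which share no arrays, had a Pearson correlation of -0.07, given as a description since genes are not independent.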

How the data were processed

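Scanner output of 12 one-colour arrays was used. The software was Agilent Feature Extraction, version 10.7.3.1, per the file headers. The deposited files hold per spot a processed signal intensity, already background-corrected by that software, with the mean signal and local background intensities and the flag for a spot well above background. The authors' deposited value table was found to hold the ratio of the processed signal to its array's median. Probe positions are of mm9 as the files give them.

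Control spots and outlier spots were left out and spots of 1 probe averaged. Of 55681 probes, 37733 were well above background on at least 3 arrays and 37649 were kept, giving 24938 genes by their brightest probe; 14277 carried a symbol. Of all genes tested, 7364 had more than 1 kept probe. A linear model over the 4 groups was fitted with limma 3.58.1 in R 4.3.3 (lmFit, eBayes), with Benjamini-Hochberg adjustment over all genes, and a gene was called at an adjusted p under 0.05. The script was tested on simulated data. The precision is limited by 3 arrays a group.

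The genes named are those called, up to 10 in each direction well above background on all 6 arrays without overlap, ranked within slide 2, up to 5 in each direction present in 1 group only, and a fixed list of B cell and allergy genes with list members at an unadjusted p under 0.05. The members and lists were chosen with earlier results of these data known. Of 895 list symbols, 138 had a probe but were not tested and 10 had none. In IL-10- cells, replicate numbers did not pair HDM with control arrays. Whether they pair IL-10+ with IL-10- arrays was not tested, and the model took all arrays as independent. Promoter sequences are RefSeq's of GRCm38.p6.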

Additional observations from a re-analysis of the deposited data

Results flagged for a closer look

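In 3 genes the HDM difference itself differed between IL-10- and IL-10+ cells (limma, test of the difference of the effects). For Tsen54 it was -5.86 ± 0.56 (adjusted p = 0.0253), with the second probe of the gene at 0.27 in IL-10- cells. For Gspt2 it was -6.60 ± 0.77 (adjusted p = 0.0467). For the transcript ENSMUST00000100326, which has no symbol in the tables used, it was 4.62 ± 0.49 (adjusted p = 0.0313): in IL-10+ cells it went from -1.26, -1.06 and -0.98 in controls to -6.04, -5.76 and -5.96 in HDM arrays, while it was not well above background in IL-10- cells, where the difference was -0.20. These p-values took IL-10+ and IL-10- arrays as independent, and their pairing was not tested. With the replicate number as a block, no gene passed.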

How the results depend on the processing

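All 12 called genes kept their direction under each alternative that tested the same probe. Because their groups did not overlap, leaving out or weighting arrays, blocking, or comparing within slide 2 could not have changed it. The number called was 12; it was 8 with array weights, 9 with the mean of all probes, 10 without the detection filter and 10 after quantile normalization, 7 with an intensity trend, 6 with the deposited value table, 4 after normexp correction, and 0 with only the 6 IL-10- arrays, with the slide as a block (with or without IL-10- HDM 3), within slide 2 and among genes well above background on all 6 arrays (1615 at an unadjusted p under 0.05). Leaving out 1 array gave 3 (IL-10- control 2) to 128 (IL-10- HDM 1). A replicate block left 3 calls between HDM and control and 0 in the difference between populations. Same-numbered HDM and control arrays of IL-10- cells did not deviate together (r of -0.06, -0.02 and -0.01), so the numbers do not pair HDM with control. Pairing of IL-10+ with IL-10- arrays was not tested. For that difference, 3 genes were called, 3 with array weights, 2 without the detection filter, 1 with an intensity trend, and 0 with the deposited value table, the mean of probes, normexp, quantile normalization, the slide block with or without IL-10- HDM 3, and genes well above background on all 6 arrays; leaving out 1 array gave 0 (IL-10+ HDM 1) to 14 (IL-10- HDM 1). Directions reversed where another probe entered: Tsen54 to 0.27 and Irak4 to 1.77 among genes well above background on all 6 arrays, and Prkcb to -0.20 and Notch2 to -0.40 with the mean of all probes. The slide block rests on 1 control array, and differences of dim genes are limited by the background.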
